A study of Mus musculus with 6 samples.

Results

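The complement system was followed through 9 genes of a table of 41128 genes measured in murine acute myeloid leukemias: Clu, Cfp, C3, C3ar1, C5ar1, Cfb, Cd55, Cd59a and Serping1. They were taken by gene symbol, all 9 were found, and 4 of them (Clu, Cfp, C3 and C5ar1) were among the 9522 protein-coding genes over 0.5 RPKM in at least 1 mouse, the genes that were tested. Clu and Cfp were chosen for their changes between the cohorts, so their values are a description and carry no test. The other 7 members were chosen by their place in the pathway, though with earlier results of these data known.

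The leukemias arose from KIT+ bone marrow (BM) cells of CD45.1+ donor mice (B6.SJL-PtprcaPepcb/BoyJ), each given 2 retroviruses and selected with drugs before injection into irradiated C57BL/6 (CD45.2+) hosts, which also received untransduced CD45.2+ BM. The leukemias compared were Hoxa9/MTV, which carried a Hoxa9 vector and the empty vector MTV, and Hoxa9/IRX3, which carried the Hoxa9 vector and one expressing human IRX3, a homeodomain transcription factor. Both cohorts therefore expressed retroviral Hoxa9, and the labels give strain C57BL/6 for all samples. The study's methods give female donors at harvest and female hosts at injection of 6 to 12 weeks. The hosts were sampled later, when sick, and the age of each at sampling was not given. The study reported later leukemia onset in Hoxa9/IRX3 than in Hoxa9/MTV recipients, so age at sampling cannot be told apart from cohort. Donor-derived KIT+Gr1+ leukemia cells were flow sorted from BM of sick mice, and 1 polyA library was made per mouse, from mice 1.1, 1.2 and 1.4 (Hoxa9/MTV) and mice 3.2, 3.3 and 3.5 (Hoxa9/IRX3). The sort kept only KIT+Gr1+ cells, so the values describe that fraction and not whole BM.

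Complement is a protein cascade of innate immunity in which classical, lectin and alternative routes converge on cleavage of C3, whose fragments coat targets and whose small fragment C3a signals through the receptor C3AR1. Cleavage of C5 yields C5a, the ligand of C5AR1, and starts the terminal pathway. Properdin, encoded by Cfp and made largely by myeloid cells, stabilizes the alternative pathway convertase that factor B (Cfb) forms with C3b, while CD55, CD59, C1 inhibitor (Serping1) and clusterin (Clu) restrain the cascade at different steps, clusterin being also an extracellular chaperone.

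Promoters of C3 and Cfp are shown because these were the members with reads in every mouse that differed between cohorts, in opposite directions. Each run is the 250 bases before the RefSeq start on GRCm38.p6, written 5′ to 3′ on the minus strand, on which both genes lie. Capitals mark the single match found to any of 4 motifs.
C3 promoter, chr17:57228137-57228386: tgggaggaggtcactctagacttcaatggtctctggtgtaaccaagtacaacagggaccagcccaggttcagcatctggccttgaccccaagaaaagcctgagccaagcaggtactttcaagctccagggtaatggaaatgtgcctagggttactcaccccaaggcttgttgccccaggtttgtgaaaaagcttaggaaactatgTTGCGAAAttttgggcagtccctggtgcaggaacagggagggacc
Cfp promoter, chrX:20931556-20931805: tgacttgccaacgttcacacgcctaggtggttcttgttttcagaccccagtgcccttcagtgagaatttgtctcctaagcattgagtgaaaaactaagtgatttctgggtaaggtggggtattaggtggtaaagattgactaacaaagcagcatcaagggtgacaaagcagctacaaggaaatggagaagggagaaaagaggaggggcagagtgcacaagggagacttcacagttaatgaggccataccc

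The motifs searched on both strands were ACANNTGT (Iroquois), TTGCNNAA (C/EBP), GAGGAA (PU.1) and TGATTTA (HOX with PBX). Among 32851 promoter windows of this length, 6.31% held ACANNTGT, 9.56% TTGCNNAA, 23.3% GAGGAA and 2.61% TGATTTA. The table held promoters of 6 of the 9 members (Cfp, C3, C3ar1, C5ar1, Cd55 and Cd59a). The C3 promoter held TTGCNNAA as TTGCGAAA, 45 to 38 bases before the start, and the Cd59a promoter held GAGGAA, 62 to 57 bases before the start. No match to the 4 motifs lay in the windows of Cfp, C3ar1, C5ar1 and Cd55, and no 2 matches overlapped.

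Values below are in RPKM, reads divided by library size and by gene length, where the length is that of the whole gene span with its introns. Library sizes, recovered from the steps of the RPKM values, were 7979246 to 9803621 reads. The range of filtered reads per sample that the study reported was slightly higher. A difference is given on the log2(RPKM + 0.5) scale as Hoxa9/IRX3 minus Hoxa9/MTV with its standard error, and a gene was called where limma gave an adjusted p under 0.05 over all tested genes and the difference was at least 2-fold. In bulk samples, fewer cells of a type and less RNA per cell cannot be told apart.

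C3, the central component, rose in Hoxa9/IRX3 leukemias. Its level was 9.77, 13.3 and 9.52 RPKM in Hoxa9/MTV mice 1.1, 1.2 and 1.4, and 20.1, 26.9 and 34.7 RPKM in Hoxa9/IRX3 mice 3.2, 3.3 and 3.5. The cohorts did not overlap, and the lowest Hoxa9/IRX3 mouse lay well above the highest Hoxa9/MTV mouse. The means were 10.9 ± 2.12 and 27.2 ± 7.30 RPKM (SD, n = 3 each), a ratio of 2.50. The log2 difference was 1.27 (SE 0.24, 95% interval 0.70 to 1.84), with an adjusted p of 0.0360 by limma. These values rest on 2088 to 2672 reads per Hoxa9/MTV library and 4298 to 6682 per Hoxa9/IRX3 library. C3 (ENSMUSG00000024164) lies at chr17:57203970-57228136 on the minus strand of GRCm38, with 5143 bases of exon in a span of 24167.

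With 3 mice a cohort the C3 call was close to its limit. It was kept without mouse 3.2 (adjusted p = 0.0211 by limma) and lost when mouse 1.1, 1.2, 1.4, 3.3 or 3.5 was left out, with adjusted p-values of 0.134, 0.0984, 0.151, 0.0598 and 0.0556, and it was also lost when no expression filter was applied. The log2 difference stayed between 1.08 and 1.46 when 1 mouse was left out. Across all tested genes 105 were called higher in Hoxa9/IRX3 (1.10%) and 193 lower (2.03%).

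Cfp, which encodes properdin, was the member with the highest level in Hoxa9/MTV leukemias and was lower in Hoxa9/IRX3. It stood at 25.4, 19.9 and 19.6 RPKM in mice 1.1, 1.2 and 1.4, and at 11.8, 6.79 and 4.29 RPKM in mice 3.2, 3.3 and 3.5. The cohorts did not overlap, and the Hoxa9/IRX3 mice were spread more widely, by 2.74-fold from lowest to highest against 1.30-fold in Hoxa9/MTV. The means were 21.6 ± 3.27 and 7.61 ± 3.80 RPKM (SD, n = 3 each), 2.84-fold lower in Hoxa9/IRX3, with a log2 difference of -1.54 (SE 0.34). When 1 mouse was left out the difference lay between -1.90 and -1.22, the extremes being without mouse 3.2 and without mouse 3.5. The reads behind these values numbered 1011 to 1371 per Hoxa9/MTV library and 636, 406 and 209 in mice 3.2, 3.3 and 3.5. Cfp (ENSMUSG00000001128) lies at chrX:20925454-20931555 on the minus strand.

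Within the Hoxa9/IRX3 cohort, C3 and Cfp stood in opposite order. Mouse 3.2 had the highest Cfp and the lowest C3, and mouse 3.5 the lowest Cfp and the highest C3. In Hoxa9/MTV the order was not opposite, mouse 1.4 having the lowest level of both genes. An order of 3 mice is a description and was not tested. Expressed per exon length, so that the genes can be compared, the level of C3 divided by that of Cfp was 0.514, 0.892 and 0.651 in mice 1.1, 1.2 and 1.4. The same quotient was 2.28, 5.30 and 10.8 in mice 3.2, 3.3 and 3.5. Cfp was thus the more abundant of the pair in each Hoxa9/MTV mouse and C3 in each Hoxa9/IRX3 mouse.

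Clu, which encodes clusterin, had no read in any Hoxa9/MTV library and was present in every Hoxa9/IRX3 library. Its level in mice 3.2, 3.3 and 3.5 was 4.14, 4.71 and 3.41 RPKM, from 479, 603 and 355 reads, a mean of 4.08 ± 0.653 RPKM (SD, n = 3). Among the members whose level exceeded the threshold, Clu varied least between Hoxa9/IRX3 mice, 1.38-fold from lowest to highest against 1.73-fold for C3 and 2.74-fold for Cfp. The limit that 0 reads allow, taken as 3 reads per library, corresponds to 0.0237 to 0.0276 RPKM in the Hoxa9/MTV libraries, so that Clu was at least 158-fold higher in Hoxa9/IRX3, and at least 146-fold higher without mouse 3.3. The lowest Hoxa9/IRX3 mouse exceeded the highest such limit by 123-fold. These limits cover counting error only. Clu (ENSMUSG00000022037) lies at chr14:65968483-65981547 on the plus strand.

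Complete absence in one cohort and presence throughout the other was rare. Clu was 1 of 3 protein-coding genes listed at 0 in the 3 Hoxa9/MTV mice and over 0.5 RPKM in the 3 Hoxa9/IRX3 mice, with a mean of 15.5 RPKM over exon length. The others, with 30.0 and 5.35 RPKM over exon length, were Clec3a, at 2.63, 2.98 and 1.24 RPKM in mice 3.2, 3.3 and 3.5, and Fam110c, at 0.775, 6.17 and 0.819 RPKM. The reverse pattern was met by 1 gene, Rnase6, a secreted ribonuclease of monocytes and other myeloid cells, at 2.75, 2.17 and 2.41 RPKM in mice 1.1, 1.2 and 1.4. These genes were named after their values were seen.

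**Figure D1:**
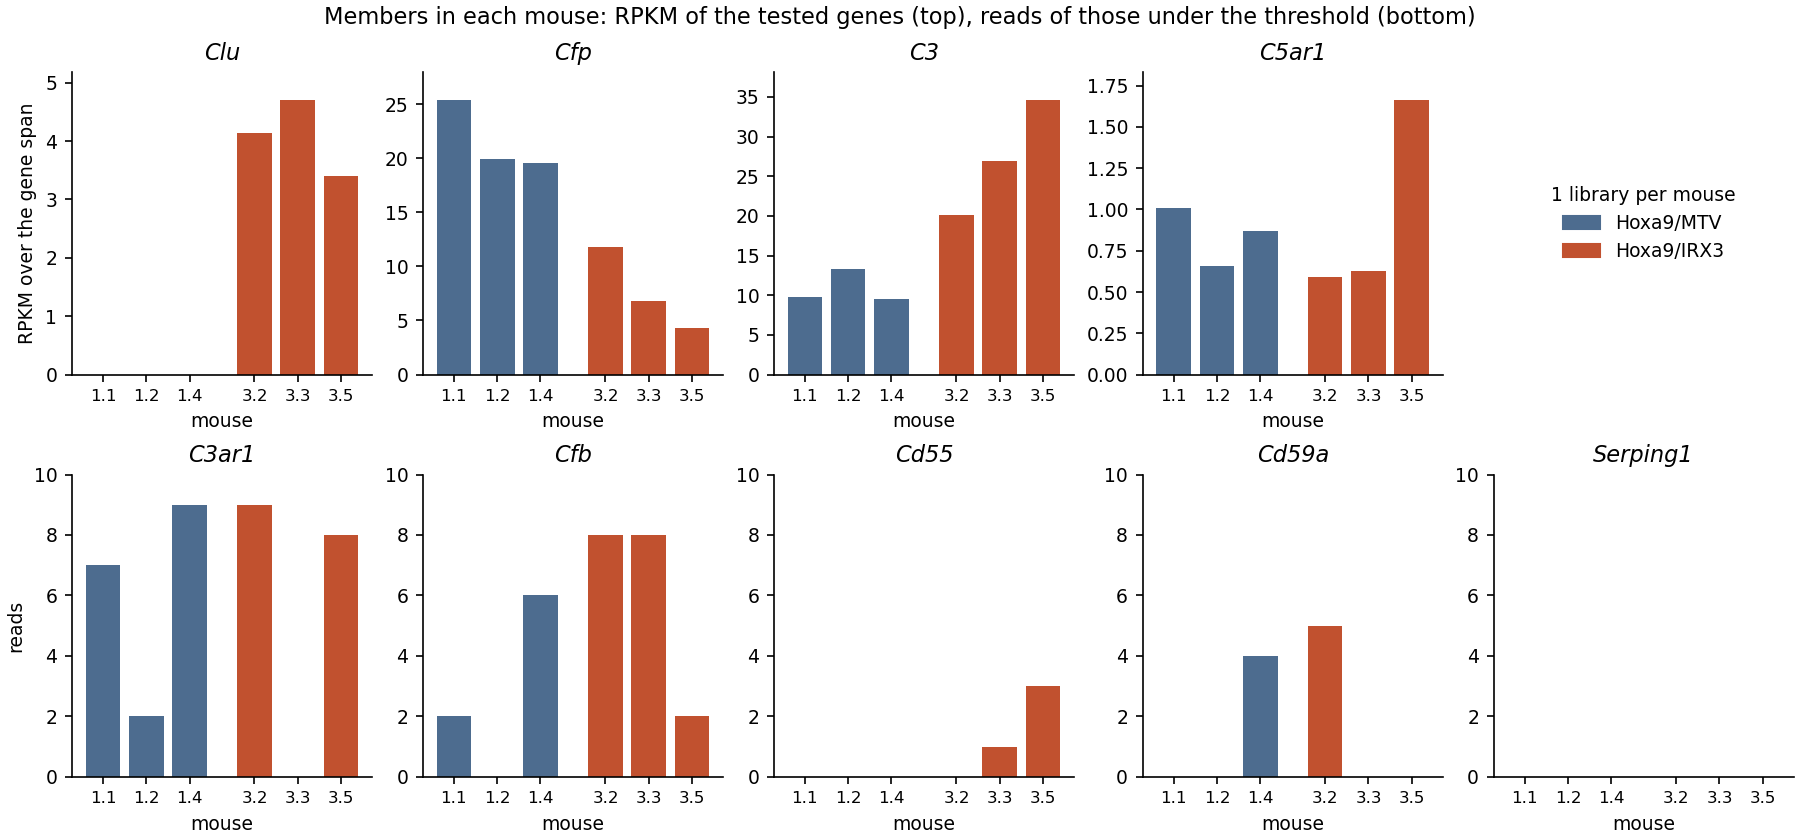
Bars show each mouse, blue for Hoxa9/MTV and red for Hoxa9/IRX3; the top row gives RPKM over the gene span for the 4 tested members and the bottom row gives reads for the 5 members under the threshold, each panel with its own vertical axis starting at 0. Clu is at 0 in mice 1.1, 1.2 and 1.4, the Cfp and C3 cohorts do not overlap, and no member of the bottom row exceeds 9 reads.

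Of the receptors for the cascade's small fragments, C5ar1 did not pass the test and C3ar1 was under the threshold. C5ar1, the C5a receptor of neutrophils and monocytes, was at 1.01, 0.659 and 0.872 RPKM in mice 1.1, 1.2 and 1.4 and at 0.591, 0.630 and 1.66 RPKM in mice 3.2, 3.3 and 3.5. The cohorts overlapped, with mouse 3.5 above every other mouse and mice 3.2 and 3.3 at the lower end. The log2 difference was 0.05 (SE 0.28, 95% interval -0.62 to 0.73), with an adjusted p of 0.928 by limma. That interval does not show the cohorts to be alike. Without mouse 3.5 the difference was -0.27 (adjusted p = 0.336). C5ar1 (ENSMUSG00000049130) lies at chr7:16246743-16259540 on the minus strand, and its reads numbered 67 to 170 per library.

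C3ar1, the C3a receptor, had 7, 2 and 9 reads in mice 1.1, 1.2 and 1.4 and 9, 0 and 8 in mice 3.2, 3.3 and 3.5. The cohorts overlapped and the totals were 18 and 17 reads.

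The remaining members were near or at 0. Cfb, the convertase subunit that properdin stabilizes once it has bound C3b, had 2, 0 and 6 reads in mice 1.1, 1.2 and 1.4 and 8, 8 and 2 in mice 3.2, 3.3 and 3.5, and overlaps the gene Gm20547 on the same strand, so that its reads are uncertain. Cd55, a membrane protein that speeds convertase decay, had no read in Hoxa9/MTV mice and 0, 1 and 3 reads in mice 3.2, 3.3 and 3.5. It overlaps the antisense gene Gm16083, and counting by strand was not stated. Cd59a, which blocks assembly of the membrane attack complex, had 4 reads in mouse 1.4, 5 in mouse 3.2 and none in the other 4 mice, and has a close paralog, Cd59b, with 0 to 15 reads per library. Serping1, which encodes C1 inhibitor, had no read in any of the 6 libraries, where 0 reads allow up to 0.0304 to 0.0374 RPKM.

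Levels per exon length put the members in different order in the 2 cohorts. In Hoxa9/MTV leukemias the order was Cfp (76.05 ± 11.5 RPKM over exons, SD, n = 3), C3 (51.1 ± 9.96), C5ar1 (4.21 ± 0.876) and then the low members C3ar1 (0.152), Cfb (0.0999) and Cd59a (0.0761), with Clu, Cd55 and Serping1 at 0. In Hoxa9/IRX3 leukemias C3 came first (128 ± 34.3), followed by Cfp (26.8 ± 13.4), Clu (15.5 ± 2.48), C5ar1 (4.79 ± 3.03), Cfb (0.232), C3ar1 (0.156), Cd59a (0.104) and Cd55 (0.0328), with Serping1 at 0. Cfp and Clu overlapped between Hoxa9/IRX3 mice, as did each of the low members with its neighbour in the order, whereas C3 and Cfp did not overlap in either cohort. C3 exceeded 91.4% of tested genes by its mean in Hoxa9/MTV and 97.8% in Hoxa9/IRX3. The corresponding shares for Cfp were 95.2% and 81.0%, and Clu exceeded 65.3% of tested genes in Hoxa9/IRX3.

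**Figure D2:**
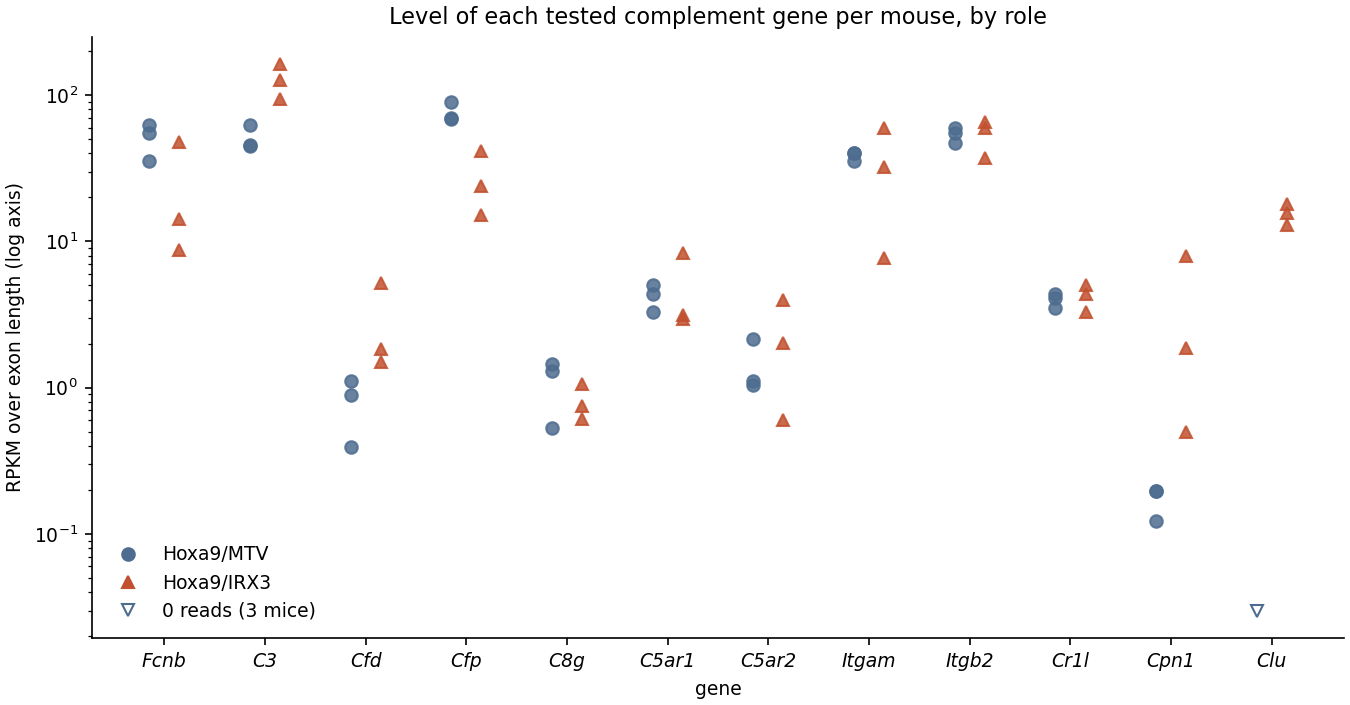
Each point is 1 mouse, plotted as RPKM over exon length on a log axis for the 12 tested complement genes, with circles for Hoxa9/MTV and triangles for Hoxa9/IRX3; the open triangle stands for the 3 Hoxa9/MTV mice with 0 Clu reads, placed at the foot of the axis. C3 (45.9, 62.6 and 44.7 against 94.3, 126 and 163), Cfp and Clu separate by cohort, while C5ar1, Itgb2 and Cr1l overlap.

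The members were set among the other genes of the pathway, taken from lists of recognition molecules, alternative pathway components, terminal components, receptors and regulators. Of 51 complement genes in the table, 12 were tested, 22 were detected under the threshold and 17 had no read in any mouse. Besides Clu and Cfp, 1 of the 10 tested genes was called higher in Hoxa9/IRX3, namely C3, and 0 were called lower by limma or by voom on recovered reads, beside 1.10% and 2.03% of all tested genes. At an unadjusted p under 0.05, the genes of this group were C3, Cfd and Fcnb (adjusted p = 0.0360, 0.160 and 0.205 by limma). The share of all tested genes under that unadjusted p was not counted, so nothing is read from the number of these genes. Cohorts did not overlap for 3 of the 10, C3, Cfd and Cpn1, all higher in Hoxa9/IRX3, and for 0 that were lower, beside 12.2% and 21.6% of all tested genes. The median log2 difference of the 10 was 0.05, against -0.06 over all tested genes. Cpn1 and Clu passed the threshold only through Hoxa9/IRX3 mice, so these counts are a description.

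Among recognition molecules the 1 tested gene was Fcnb, which encodes ficolin B, a lectin pathway pattern recognition protein of myeloid cells. It was at 8.67, 9.83 and 5.61 RPKM in mice 1.1, 1.2 and 1.4 and at 7.52, 1.37 and 2.25 RPKM in mice 3.2, 3.3 and 3.5. Mouse 3.2 lay within the Hoxa9/MTV range and the other two Hoxa9/IRX3 mice below it. The log2 difference was -1.27 (SE 0.53), with an adjusted p of 0.205 by limma, and without mouse 3.2 it was -1.88 with an adjusted p of 0.0232. C1qa, C1qb, Fcna and Colec11 had at most 3, 13, 2 and 2 reads in a library, and C1qc, C1rb, Mbl1, Mbl2, Masp1 and Colec10 had no read in any mouse.

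In the alternative pathway, Cfd, which encodes the protease factor D that cleaves factor B, was at 0.564, 0.200 and 0.458 RPKM in Hoxa9/MTV mice 1.1, 1.2 and 1.4 and at 0.938, 2.66 and 0.764 RPKM in mice 3.2, 3.3 and 3.5. The cohorts did not overlap, but the levels rest on 3 to 47 reads per library. Its log2 difference was 1.00 (SE 0.37) with an adjusted p of 0.160 by limma.

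Of the terminal components, C8g was the one tested, with a log2 difference of -0.18 (SE 0.21, adjusted p = 0.628) and 7 to 21 reads per library. Hc, the gene of C5, had no read in any mouse, as was the case for C6, C8a and C9. Transcripts for the precursor of C5a were therefore not detected in the sorted cells that carried reads of C5ar1.

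The cohorts overlapped for the 3 tested receptors that are not members. C5ar2, the second C5a receptor and the gene next to C5ar1, was at 0.804, 0.390 and 0.411 RPKM in mice 1.1, 1.2 and 1.4 and at 0.755, 0.224 and 1.48 RPKM in mice 3.2, 3.3 and 3.5, with a log2 difference of 0.26 (SE 0.37, adjusted p = 0.704). Itgam, the alpha chain of complement receptor 3 (CD11b), was at 3.17 to 3.64 RPKM in Hoxa9/MTV and at 2.90, 0.690 and 5.34 RPKM in mice 3.2, 3.3 and 3.5. The Hoxa9/IRX3 values of Itgam lay on both sides of the Hoxa9/MTV range, and the log2 difference was -0.47 (SE 0.53, adjusted p = 0.622). Itgb2, its beta chain, differed by -0.02 (SE 0.21, adjusted p = 0.966), with 95% limits of -0.53 and 0.49. Mouse 3.5 had the highest value of C5ar1, C5ar2, Itgam and Itgb2 among the 6 mice.

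Among regulators, Cr1l, the rodent membrane regulator Crry, was at 0.991 to 1.53 RPKM in all 6 mice, with a log2 difference of 0.05 (SE 0.15, 95% interval -0.30 to 0.40, adjusted p = 0.854). The interval is the narrowest of the 10 tested genes besides Clu and Cfp. Cpn1, the catalytic subunit of carboxypeptidase N, which inactivates C3a and C5a, had 4, 6 and 7 reads in Hoxa9/MTV mice and 259, 18 and 55 in mice 3.2, 3.3 and 3.5. The cohorts did not overlap, 1 mouse (3.2) carried most of the reads, and the log2 difference was 0.69 (SE 0.35, adjusted p = 0.277). Cfi, C4bp, Vtn and Cpn2, which encode other soluble regulators, had no read.

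Of the 22 detected genes under the threshold, 3 did not overlap between cohorts, all lower in Hoxa9/IRX3: C1ra, C4a and C8b. That share is not above the 21.6% of tested genes that were lower without overlap. C1ra, which encodes the classical pathway protease C1r, had 18, 16 and 29 reads in mice 1.1, 1.2 and 1.4 and 2, 1 and 6 in mice 3.2, 3.3 and 3.5. C4a and C8b had at most 7 and 2 reads in a library, and C4a shares near-identical sequence with C4b. C4a had 2 reads in both mouse 1.2 and mouse 3.3, so its separation in RPKM rests on library size. These 3 genes were named after their values were seen, and with 3 mice against 3 the smallest two-sided p of an exact permutation test is 0.1. C2, the classical pathway counterpart of factor B, had 15 to 55 reads per library with overlapping cohorts.

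**Figure D3:**
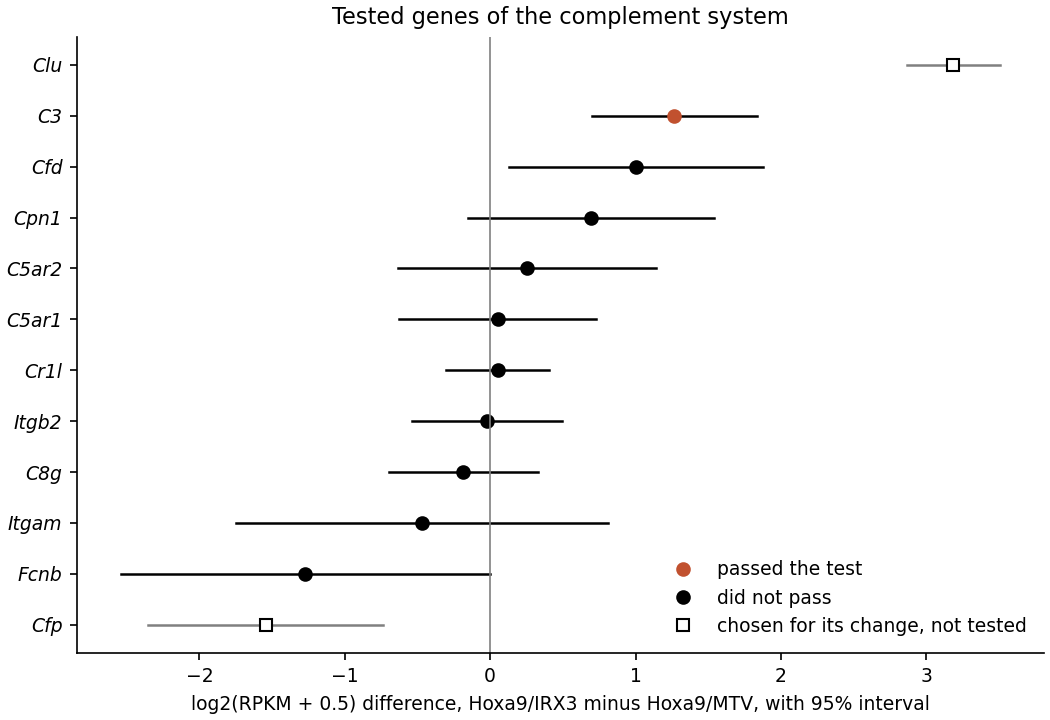
Points are log2(RPKM + 0.5) differences, Hoxa9/IRX3 minus Hoxa9/MTV, of the 12 tested complement genes, and lines are 95% intervals from limma; open squares are Clu and Cfp, which were chosen for their changes. Besides Clu and Cfp, C3 at 1.27 is the gene called, Cfd at 1.00 and Fcnb at -1.27 were not, and the intervals of C5ar1, Itgb2, Cr1l and C8g include 0.

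Receptors reported to bind clusterin were a separate list of 4 genes, of which Lrp8 (ApoER2) was tested. It was at 0.694, 0.709 and 0.743 RPKM in Hoxa9/MTV and 0.929, 0.595 and 1.12 RPKM in mice 3.2, 3.3 and 3.5, with a log2 difference of 0.17 (SE 0.16, adjusted p = 0.565 by limma). The cohorts overlapped. Lrp2 and Vldlr had at most 4 and 2 reads in a library, and Trem2, a receptor of macrophages, had 19, 15 and 17 reads in Hoxa9/MTV and 12, 0 and 2 in mice 3.2, 3.3 and 3.5.

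**Figure D4:**
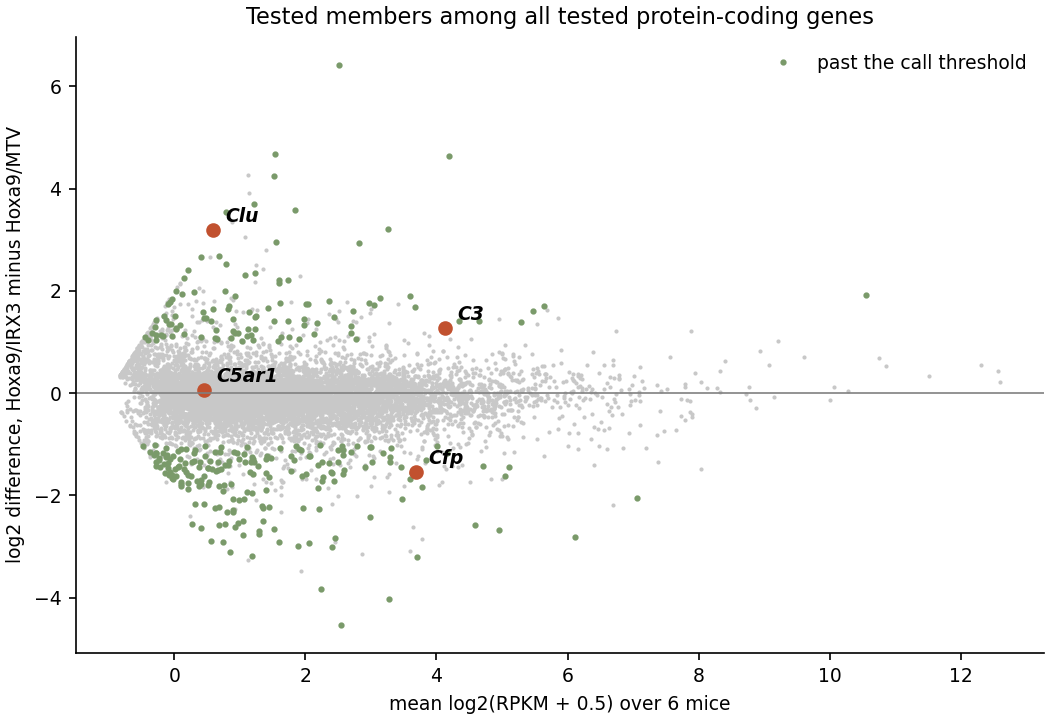
Each grey point is 1 of 9522 tested genes, with its mean log2(RPKM + 0.5) over 6 mice on the horizontal axis and its log2 difference on the vertical axis; green points passed the call threshold and labelled red points are the 4 tested members. C3 at 1.27 and Cfp at -1.54 lie among well expressed genes, and Clu at 3.19 lies on the upper edge, where Hoxa9/MTV values are at 0.

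Neighbours on the chromosome were examined for the 3 members that separated by cohort. The genes on either side of Clu, Scara3 and Gulo, had 1 read in all 6 libraries together, and the 3 tested genes starting within 250 kb of Clu differed by -0.05 to 0.44, Pbk (0.44) having the 1 unadjusted p under 0.05 and none being called by limma. Elk1, next to Cfp, was at 0.832 to 1.33 RPKM with overlapping cohorts and a log2 difference of 0.09 (SE 0.14), and of 6 tested genes within 250 kb of Cfp none was called by limma, with 2 (Araf at -0.46 and Usp11 at -0.94) at an unadjusted p under 0.05. On the side of its 3′ end, C3 is followed by Tnfsf14, the gene of the cytokine LIGHT, which was called higher. Tnfsf14 was at 2.86, 1.18 and 3.21 RPKM in mice 1.1, 1.2 and 1.4 and at 8.82, 13.5 and 6.32 RPKM in mice 3.2, 3.3 and 3.5, without overlap. Its log2 difference was 1.80 (SE 0.38, adjusted p = 0.0469 by limma), and the call was lost in each of the 6 fits without 1 mouse, with adjusted p from 0.0517 to 0.130. Gpr108, on the other side of C3, differed by -0.01 (SE 0.20), and Dennd1c, beyond Tnfsf14, was called lower at -1.56 (SE 0.29, adjusted p = 0.0354), a call kept in 2 of 6 fits without 1 mouse, with adjusted p from 0.0157 to 0.142. Of 9 tested genes within 250 kb of C3, Tnfsf14 and Dennd1c were the ones called, beside 1.10% of all tested genes called higher and 2.03% lower. The share of all tested genes at an unadjusted p under 0.05 was not counted, and the counts of neighbours are a description.

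**Figure D5:**
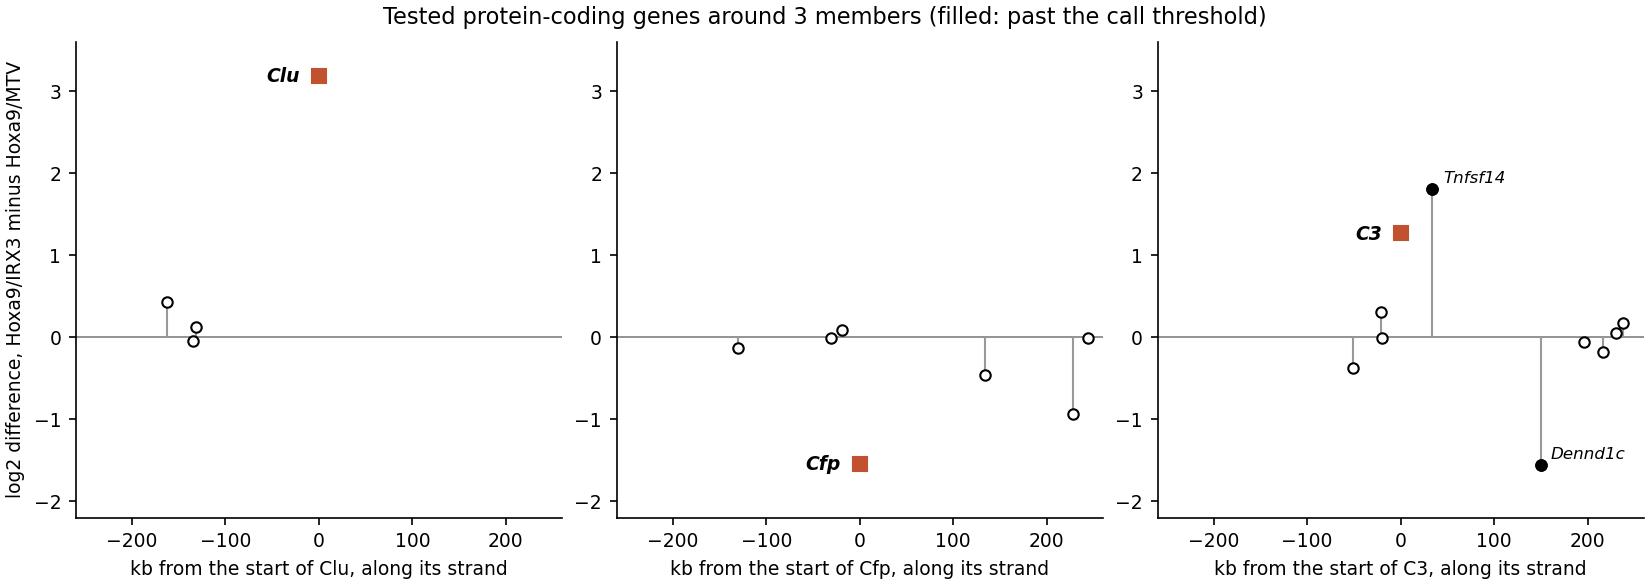
Each circle is a tested protein-coding gene, placed by the distance in kb of its start from that of Clu, Cfp or C3 (squares), along the strand of that member, and by its log2 difference, Hoxa9/IRX3 minus Hoxa9/MTV; filled circles passed the call threshold. The genes around Clu and Cfp, from Usp11 at -0.94 to Pbk at 0.44, are open circles, whereas Tnfsf14 at 1.80 lies beside C3 at 1.27.

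Genes whose levels over the 6 mice were most like those of Clu were, by Pearson's r on log2(RPKM + 0.5) among the 6968 tested genes whose mean reached 1 RPKM, Gfi1 (r = 0.998), Aplp2 (r = 0.997) and Rpl13a (r = 0.997). Gfi1, a transcriptional repressor of the granulocytic lineage, was at 28.4, 25.3 and 27.8 RPKM in Hoxa9/MTV and at 92.7, 94.4 and 82.4 RPKM in Hoxa9/IRX3. For Cfp they were Ivd (r = 0.998), Dcaf15 (r = 0.995) and Gm21985 (r = 0.994). Ivd, an enzyme of leucine breakdown, was at 4.28, 4.04 and 3.94 RPKM in Hoxa9/MTV and at 2.97, 2.15 and 1.64 RPKM in mice 3.2, 3.3 and 3.5. The 6 points fall into the 2 cohorts, which these coefficients mostly restate, and they are given as a description.

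Checks of the labels, the sort and other cells are given here for the whole series. The mouse Irx3 gene had no read in Hoxa9/MTV and 474, 15 and 4 reads in mice 3.2, 3.3 and 3.5, the retroviral cDNA being human, and Hoxa9 overlapped between cohorts at 174 to 363 and 154 to 242 RPKM. Of the sorting markers, Kit was at 2.48 to 3.12 RPKM in Hoxa9/MTV and 1.63 to 2.70 RPKM in Hoxa9/IRX3, with overlap. Ly6g, 1 of the genes of Gr1, was at 0.0532 to 0.145 and 0.682 to 1.42 RPKM, from 2 to 5 and 26 to 49 reads. Ly6g transcripts alone do not measure Gr1 on the cells. Ly6c2, a gene of the same family that is counted below as a monocyte marker, was at 413 to 479 and 414 to 844 RPKM. Of 16 neutrophil markers, 16 were tested, 3 (Elane, Ly6g and Retnlg) were called higher and 0 lower, beside 1.10% and 2.03% of all tested genes. Cohorts did not overlap for 7, those called and Mpo, Prtn3, Ctsg and Mmp9, all higher, beside 12.2% of all tested genes. Ly6g passed the threshold of 0.5 RPKM only through Hoxa9/IRX3 mice, so these counts are a description. The summed level of the neutrophil list was 3138 to 4621 RPKM in Hoxa9/MTV and 6917 to 7567 in Hoxa9/IRX3. Elane held the largest part of that sum, which without it was 2524 to 3567 and 3585 to 5330 RPKM, and the cohorts overlapped for Ltf, Ngp and Mmp8 among others. Of 19 monocyte and macrophage markers, 11 were tested, and 3 (Ccr2, Cd68 and Klf4) were called lower and 0 higher, beside 2.03% and 1.10% of all tested genes. For 4 of the 11, those called and Lyz2 (-0.83, adjusted p = 0.104 by limma), the cohorts did not overlap. All 4 were lower, beside 21.6% of all tested genes. The monocyte sums were 797 to 894 and 589 to 1051 RPKM, and Marco was at 0. Ly6c2 held the largest part of the monocyte sum, which without it was 357 to 415 and 164 to 261 RPKM. Sums without their leading gene were taken after the values were seen. The part of the neutrophil and monocyte markers in the differences of C3 and Cfp was not tested.

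Markers of cells that contain clusterin or liver complement transcripts were read in the same way. Of 13 megakaryocyte and platelet markers, 4 were tested and 0 called by limma (1, Itgb3, had an unadjusted p under 0.05), the sums were 6.44 to 7.86 and 2.72 to 15.2 RPKM, and Ppbp, Gp1ba and Gp6 had no read in any mouse. Among 17 stroma and endothelium markers, 3 were tested and Vcam1 was called higher, at 1.99, 3.21 and 2.98 RPKM in Hoxa9/MTV and 30.6, 15.6 and 49.3 RPKM in mice 3.2, 3.3 and 3.5, while Col3a1, Dcn, Lum, Sparc and Alpl had no read in any mouse. The stromal sums were 4.90 to 7.02 and 19.3 to 56.0 RPKM, and without Vcam1 2.91 to 4.05 and 0.586 to 6.71 RPKM. Pdgfrb was lower without overlap (-1.25, adjusted p = 0.0546 by limma) and Pecam1 overlapped. Of 6 hepatocyte markers 1 was tested and 0 were called by limma, also at an unadjusted p under 0.05, the sums were at most 0.516 and 0.830 RPKM, and Ttr, Serpina1a and Fgb had no read. Dendritic cell (5 tested), B cell (2 tested) and mast cell and basophil (4 tested) markers each had 1 gene called lower, Flt3, Cd79b and Cpa3, with sums of 12.9 to 15.2 and 10.4 to 15.4 RPKM, 6.35 to 7.30 and 0.652 to 5.03 RPKM, and 11.8 to 16.0 and 4.61 to 8.001 RPKM. Vpreb1 of the B cell list (1.08, adjusted p = 0.272) and Ms4a2 of the mast cell list (0.66, adjusted p = 0.103) were higher without overlap and did not pass by limma. Vpreb1 was over 0.5 RPKM in mouse 3.5 only. Mcpt8 of the mast cell and basophil list was lower without overlap (-1.21, adjusted p = 0.0621) and also did not pass by limma. The marker calls were kept in 1 (Cd79b and Cpa3) to 4 (Elane, Ccr2 and Flt3) of 6 fits without 1 mouse. Across all tested genes 1.10% were called higher and 2.03% lower, and 12.2% were higher and 21.6% lower without overlap. No such share was counted for an unadjusted p under 0.05. Flt3 and Cpa3 passed the threshold of 0.5 RPKM only through Hoxa9/MTV mice, and the lists are short, so these counts are a description. No T and NK cell or erythroid marker was tested, their sums being at most 0.109 and 0.342 RPKM. Markers at 0 in all mice included Ms4a1 and Pax5 for B cells, Cd3d, Trac, Ncr1 and Gzma for T and NK cells, Hba-a1, Hba-a2, Hbb-bt and Alas2 for erythroid cells, and Mcpt4, Tpsb2, Tpsab1 and Fcer1a for mast cells.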

How the data were processed

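The authors aligned paired-end 75-base reads of strand-specific polyA libraries to GRCm38 with Bowtie2 2.2.1 and SAMtools 0.1.19, per the labels and methods, annotated genes by Ensembl 76, and deposited RPKM per gene for each mouse. Strand use in counting was not given in the sources used here. Steps of the low RPKM values matched whole reads over the whole gene span of GENCODE M21 (within 0.01 of a whole number in all libraries for 64.95% of tested genes), which gave reads and library totals, and exon lengths for levels between genes. Protein-coding genes over 0.5 RPKM in at least 1 mouse were tested on log2(RPKM + 0.5) with limma 3.58.1 (variance trend, no covariate, Benjamini-Hochberg over 9522 genes). A pseudocount shrinks the fold of low genes. The mice are separate animals, and their numbers pair no samples. Alternatives changed the pseudocount, filter, scaling, length, model, criterion or mice.

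All 9 members, complement genes over 0.5 RPKM, adjacent genes, and the 3 genes most like Clu and Cfp were named by rule. Members and lists were chosen with earlier results of these data known. Of 54 complement symbols, 51 matched. Promoters came from RefSeq (GRCm38.p6). No per-sample column was left unassigned.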

Additional observations from a re-analysis of the deposited data

How the results depend on the processing

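The number of genes called higher was 66 with a pseudocount of 1, 66 with no expression filter, 181 with exon length and 215 by the study's criterion of unadjusted p and 2-fold ratio, and ranged from 24 to 152 when 1 mouse was left out, being 30, 25 and 24 without mouse 1.1, 1.2 or 1.4. The number called lower was 109 with no filter and 449 by the study's criterion, with 37 to 263 when 1 mouse was left out (46, 41 and 37 without mouse 1.1, 1.2 or 1.4). Complement genes called higher, besides Clu and Cfp, numbered 0 with no filter and 0 to 1 when 1 mouse was left out, and those called lower 0 to 1, the 1 being Fcnb without mouse 3.2. The C3 difference was 1.27 with no filter (adjusted p = 0.0654 by limma) and 1.08 to 1.46 when 1 mouse was left out. C3 was called in 8 of 9 limma refits with all mice, the fit with no filter being the exception. The cause of these shifts was not tested. The fit with no filter held more genes, and the fits without 1 mouse held fewer mice. The fitted Clu difference, which depends on the pseudocount, was 5.37 at 0.1, 2.34 at 1, 4.99 with exon length and 9.89 with voom on recovered reads.

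Differences near 0 changed sign. C5ar1 was -0.020 with voom and -0.27 to 0.22 when 1 mouse was left out, C5ar2 -0.10 to 0.63, Itgam -0.98 to 0.17 and Cr1l -0.049 to 0.17. Itgb2 was 0.062 with median-of-ratios scaling, 0.079 with quantile normalization, 0.0093 by the study's criterion and -0.16 to 0.20 when 1 mouse was left out. No paired analysis was possible because the cohorts share no mouse number. Read numbers limit the precision of low genes, and no detection limit was computed besides the 3-read limits given for Clu and Serping1.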
